A study of Mus musculus with 20 samples.

Results

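The genes described here are 10 nuclear genes whose products fold, refold or degrade proteins inside mitochondria. They are *Lonp1*, *Clpp*, *Clpx*, *Htra2* and *Afg3l2*, which encode proteases or their subunits, and *Hspa9*, *Dnaja3*, *Hspd1*, *Hspe1* and *Trap1*, which encode chaperones or their partners. The 10 genes were taken by name from a table of 28632 genes with a count in at least 1 library, and all 10 were found in it. Their mRNA was measured by RNA-sequencing of pancreatic islets isolated from 12-week-old mice and kept in culture before lysis. There were 6 Ctrl, 4 β-Mfn1KO, 5 β-Mfn2KO and 5 β-Mfn1/2DKO libraries, and the study compared them to learn what loss of either or both mitofusins does to β-cells. The labels give the genotypes as wild type, Mfn1-/-, Mfn2-/- and Mfn1-/-;Mfn2-/-. By the study's methods the knockouts carry floxed *Mfn1* and/or *Mfn2* deleted by Cre from the *Ins1* locus, which acts in β-cells, and the Ctrl mice carried either this Cre alone or floxed alleles alone. Each library is of whole islets, so α-, δ-, endothelial and other cells kept both genes. The study calls the Ctrl mice littermates of the knockouts, but which library came from which litter is not given in the sources used here, so litter is in no fit and the p-values measure the spread between these samples.

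As background, most mitochondrial proteins are made in the cytosol and threaded unfolded through the inner membrane, where Hspa9 (mortalin, the matrix Hsp70) pulls them in and Dnaja3, a J-protein, stimulates its ATPase. Hspd1 (Hsp60) and its lid Hspe1 (Hsp10) form the folding chamber of the matrix, and Trap1 is the mitochondrial Hsp90. Lonp1 and the ClpXP complex, in which Clpx unfolds and Clpp cuts, are the soluble AAA+ proteases of the matrix, Afg3l2 is a subunit of the inner-membrane m-AAA protease and Htra2 is a serine protease of the intermembrane space. Several of these genes are textbook targets of mitochondrial stress signalling, and mitofusin 1 and 2 are the GTPases that fuse outer mitochondrial membranes.

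Library size differed between the groups. The totals were 12.4 to 20.3 M (M, 1e6) counts in Ctrl, 15.7 to 16.7 in β-Mfn1KO and 65.5 to 122.9 in β-Mfn1/2DKO. In β-Mfn2KO, replicates 1 to 3 had 15.1 to 18.9 M and replicates 4 and 5 had 56.0 and 59.5 M. All β-Mfn1/2DKO libraries were therefore deeper than any Ctrl or β-Mfn1KO library, and handling shared by the β-Mfn1/2DKO libraries cannot be told apart from genotype in those comparisons. Counts below are scaled with TMM, the normalization of edgeR, to a common library size (normalized counts). *Mfn1* stood at 1518 to 1807 in Ctrl, 621 to 770.4 in β-Mfn1KO, 1683 to 1807 in β-Mfn2KO and 687 to 1062 in β-Mfn1/2DKO. *Mfn2* stood at 3089 to 4373 in Ctrl, 3869 to 4607 in β-Mfn1KO, 1474 to 1688 in β-Mfn2KO and 2022 to 2131 in β-Mfn1/2DKO. The summed level of 8 β-cell markers was 5969560 to 9598010 in Ctrl and 2636840 to 3587030 in β-Mfn1/2DKO, with 8 of 8 lower. Of 22 acinar markers 20 were higher and 1 lower in β-Mfn1/2DKO. Their sum was 743773 and 1909410 in β-Mfn1/2DKO replicates 4 and 5, 319767 in β-Mfn2KO replicate 4 and 8584 to 86242 in the other 17 libraries. All 8 endothelial markers were higher in β-Mfn1/2DKO (sums of 6023 to 9055 in Ctrl and 8662 to 13634 in β-Mfn1/2DKO), and 0 markers of any of these lists were at 0 in every library. Fewer cells of a type and less RNA per cell cannot be told apart in whole islets. The study reported no significant difference in β-cell mass between the genotypes, in slightly younger mice. Among the β-cell markers *Ins1*, at whose locus the Cre sits, was also lower in the single knockouts. Its mean was 1444210 in Ctrl, 817829 in β-Mfn1KO and 753680 in β-Mfn2KO.

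Start-site sequence is shown for 4 members that stood apart in the measurements below: *Lonp1*, *Dnaja3* and *Trap1*, which were higher in β-Mfn1/2DKO, and *Hspe1*, which was lower. RefSeq windows of 250 bases before to 50 bases after a transcription start (GRCm38.p6) were at hand for 7 of 10 members, in 8 windows, as *Hspd1* has several starts and *Htra2*, *Hspa9* and *Afg3l2* had no window. Capitals mark matches on either strand to any of 6 motifs, whose letters were set after the count table had been seen.
Lonp1 (chr17:56626854-56627153, minus strand): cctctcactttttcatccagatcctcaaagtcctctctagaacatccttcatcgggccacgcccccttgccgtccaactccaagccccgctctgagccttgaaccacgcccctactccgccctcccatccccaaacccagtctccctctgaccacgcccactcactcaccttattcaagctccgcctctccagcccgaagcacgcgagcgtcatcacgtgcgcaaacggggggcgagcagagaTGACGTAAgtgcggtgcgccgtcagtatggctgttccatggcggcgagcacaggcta
Dnaja3 (chr16:4683820-4684119, plus strand): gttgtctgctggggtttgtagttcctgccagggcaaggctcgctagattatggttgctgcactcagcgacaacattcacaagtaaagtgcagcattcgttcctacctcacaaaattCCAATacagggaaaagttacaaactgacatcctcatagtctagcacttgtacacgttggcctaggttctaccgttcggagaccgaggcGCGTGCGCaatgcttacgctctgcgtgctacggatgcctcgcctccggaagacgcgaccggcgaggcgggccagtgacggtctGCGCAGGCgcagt
Trap1 (chr16:4077761-4078060, minus strand): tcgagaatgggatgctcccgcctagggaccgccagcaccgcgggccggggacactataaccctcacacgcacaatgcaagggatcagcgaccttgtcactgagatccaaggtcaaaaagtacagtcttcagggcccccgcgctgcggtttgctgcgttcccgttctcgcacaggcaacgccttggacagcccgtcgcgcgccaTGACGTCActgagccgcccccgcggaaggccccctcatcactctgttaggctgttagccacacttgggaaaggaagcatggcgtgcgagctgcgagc
Hspe1 (chr1:55087898-55088197, plus strand): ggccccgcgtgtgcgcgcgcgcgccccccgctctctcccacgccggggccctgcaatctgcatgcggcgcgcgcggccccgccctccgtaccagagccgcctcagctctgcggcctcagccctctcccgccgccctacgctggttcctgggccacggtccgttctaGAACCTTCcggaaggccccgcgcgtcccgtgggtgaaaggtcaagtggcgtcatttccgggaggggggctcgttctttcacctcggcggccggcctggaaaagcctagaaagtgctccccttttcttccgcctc
The capitals in *Lonp1* and *Trap1* are the cAMP response element TGACGTNA, at -7 to 0 and at -47 to -40 relative to the start base, which is position 0. This motif was in 2.931% of 32851 RefSeq windows of the same length. The capitals in *Dnaja3* are the NRF1 motif GCGCANGC at -46 to -39 and 37 to 44 and a CCAAT box at -134 to -130, which 9.954% and 37.41% of all windows held. NRF1 motifs were also in the windows of *Clpx* and *Hspd1*. The capitals in *Hspe1* are the heat shock element GAANNTTC at -84 to -77 (7.86% of windows). *Hspe1* and *Hspd1* are neighbours transcribed in opposite directions, and 1 *Hspd1* window shares 285 bases with that of *Hspe1*, this site among them. The CHOP/ATF4 composite element TGATGNAA (3.969% of windows) and the C/EBP motif TTGCGNAA (0.7975%) were in 0 of the 8 windows of members. The members' windows had 55.3 to 73.3% GC and 22 to 39 CpG, against medians of 52.7% and 7 over all windows. A match describes these letters only and says nothing about binding.

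In β-Mfn1/2DKO islets 5 of the 10 mRNAs were higher than in Ctrl and 1 was lower. *Lonp1* rose 2.12-fold and *Dnaja3* 1.58-fold, *Hspa9*, *Htra2* and *Trap1* rose by smaller factors, and *Hspe1* fell. *Clpp*, *Clpx*, *Hspd1* and *Afg3l2* did not pass the test. The proteases and the chaperones thus each held members that rose and members that did not pass. Not passing does not show that an mRNA was unchanged. The test was edgeR's quasi-likelihood test in 1 fit over all 20 libraries, with Benjamini-Hochberg adjustment over all genes and a threshold of 0.05. The same rule called 16.5% of all genes tested and 33.6% of the 12274 more abundant genes (averaging 100 or more normalized counts), a class in which all 10 members fall. In this class 19.5% were higher and 14% lower, and of all genes tested 9.59% and 6.86%. The members' median log2 fold change was 0.21, against 0.03 in that class. The members were chosen with earlier results of these data known, so their shares beside those of all genes are descriptions. With a fold change over 1.5 added to the rule, 2 of 10 members were called, against 5.21% of all genes tested and 7.44% of that class, namely *Lonp1* and *Dnaja3*. Scaled by total count alone, which moved the median of the more abundant genes from 0.03 to 0.17, the same 5 mRNAs and *Clpp* were higher and *Hspe1* did not pass.

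**Figure D1:**
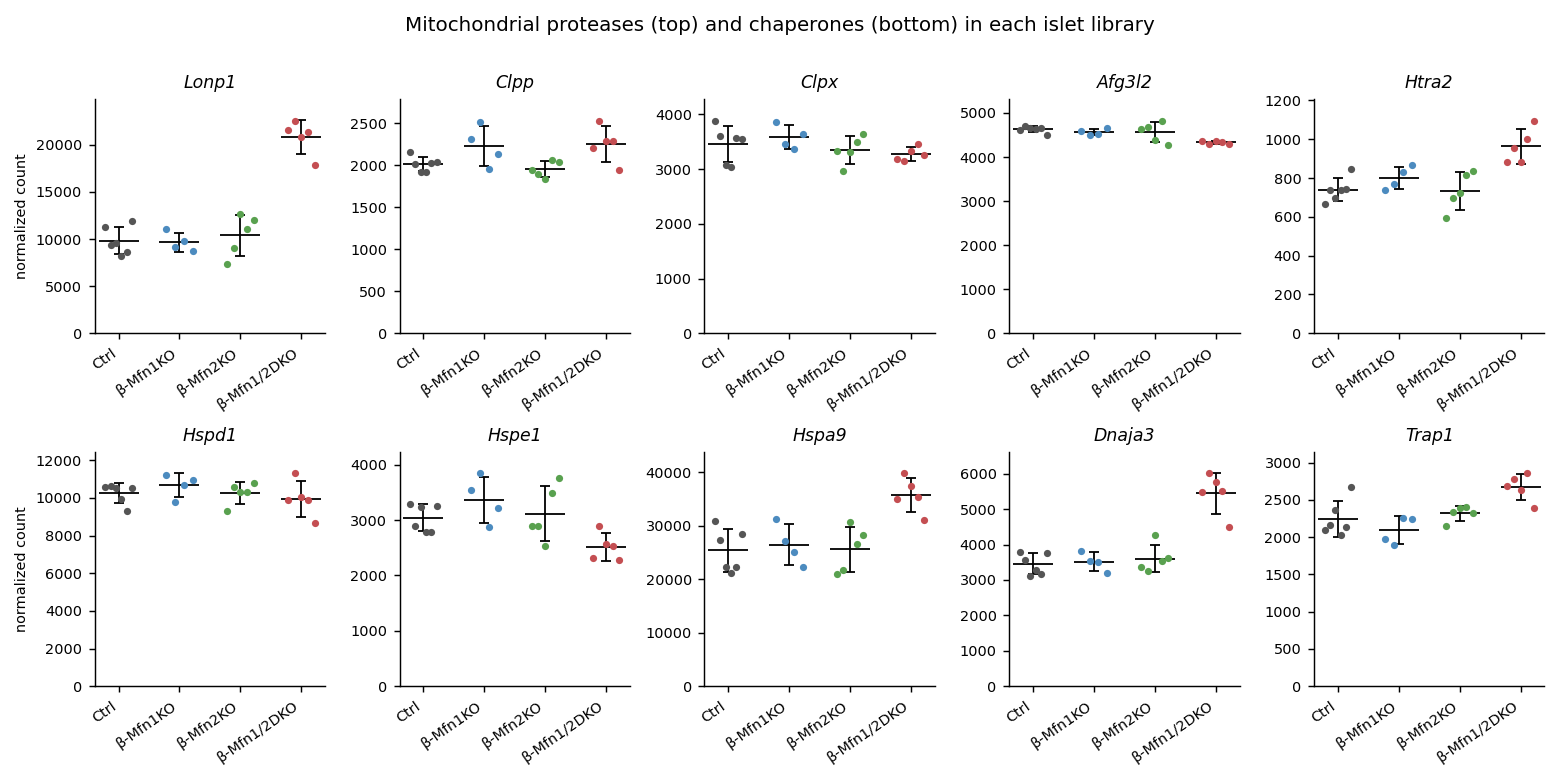
Normalized counts (vertical axis, from 0) of the 10 members in each of the 20 islet libraries, 1 panel per gene and 1 point per library, with the group mean and SD; proteases are on top and chaperones below. The *Lonp1* points of β-Mfn1/2DKO lie between 17867 and 22583, above all others, while *Hspd1* and *Clpx* overlap between all groups.

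*Lonp1* (ENSMUSG00000041168, GRCm38 chr17:56614297-56626887, minus strand), the main ATP-dependent protease of the matrix and a protein bound to mtDNA nucleoids, had the widest response of the members. It stood at 21628, 22583, 20872, 21332 and 17867 normalized counts in β-Mfn1/2DKO. In Ctrl the range was 8159 to 11870.3 with a median of 9474, so the lowest β-Mfn1/2DKO library was above the highest Ctrl library. The 4 β-Mfn1KO libraries had 11040.1, 9131, 9827 and 8726, and the 5 β-Mfn2KO libraries 7315, 9079.9, 12647, 11021 and 11985. Both single knockouts overlapped Ctrl, and β-Mfn2KO had the larger spread (10409.5 ± 2191, SD, n = 5) compared with Ctrl (9825 ± 1464, SD, n = 6). On the log2 scale β-Mfn1/2DKO exceeded Ctrl by 1.09 (95% interval 0.84 to 1.33, SE 0.12), with an adjusted p of 1.07e-06 in edgeR. No exon of *Lonp1* overlaps another gene, and it shares no 75-base stretch with another transcript.

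*Clpp* (chr17:56990305-56996188, plus strand) and *Clpx* (chr9:65294260-65330658, plus strand) encode the peptidase and the unfoldase of ClpXP. *Clpp* had 2204, 2532, 2282, 2292 and 1944 normalized counts in β-Mfn1/2DKO and 1919 to 2157 in Ctrl (median 2022). Of the β-Mfn1/2DKO libraries 4 of 5 were above all Ctrl libraries and replicate 5 was inside their range. The log2 difference of 0.16 did not pass (SE 0.06, adjusted p = 0.0898), and without β-Mfn1/2DKO replicate 5 it was 0.21 (adjusted p = 0.0213). *Clpx* had 3180.2, 3152, 3328, 3464 and 3252 in β-Mfn1/2DKO and 3045 to 3887 in Ctrl (median 3563), all of the former within the latter, with a log2 fold change of −0.08 (95% interval −0.21 to 0.05, adjusted p = 0.484).

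*Htra2* (chr6:83051266-83055273, minus strand), the serine protease of the intermembrane space, was the least abundant member. It had 880.3, 955, 883, 1001 and 1097 normalized counts in β-Mfn1/2DKO and 669 to 847 in Ctrl (median 739), so the groups did not overlap. The rise was 0.38 on the log2 scale (SE 0.08, adjusted p = 0.00224), and 0.31 (adjusted p = 0.0277) without replicates 4 and 5, the libraries of high acinar markers, which also had its 2 highest values. Its counts are uncertain because *Aup1* on the opposite strand covers 25.56% of its exon bases and had 284.3% as many counts, *Loxl3* shares 19.7% of its 75-base stretches, and no source used here says whether counting used strand.

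*Afg3l2*, the m-AAA protease subunit, had the smallest coefficient of variation of the 10 members in Ctrl and in β-Mfn1/2DKO. It had 4362, 4285, 4363, 4339 and 4305 normalized counts in β-Mfn1/2DKO and 4502 to 4698 in Ctrl (median 4640.0). The lowest Ctrl library was thus above the highest β-Mfn1/2DKO library, with coefficients of variation of 1.46% in Ctrl and 0.80% in β-Mfn1/2DKO. In β-Mfn2KO it was 4.93%, above those of *Trap1* (4.27%) and *Clpp* (4.87%). Raw counts of *Afg3l2* were 1320 to 2221 in Ctrl and 6910 to 14186 in β-Mfn1/2DKO. Counting error at such counts is at least about as large as 1.46% and 0.80%, so these values do not measure the spread between mice. The log2 difference of −0.10 was small (SE 0.04, 95% interval −0.18 to −0.02), and it did not pass in edgeR (adjusted p = 0.102). It was called lower by DESeq2 (−0.13, adjusted p = 0.000338) and, in edgeR, after filterByExpr removed genes of low counts (−0.11, adjusted p = 0.00874) and with the authors' normalization factors (−0.14, adjusted p = 0.0297). When libraries were scaled by total count only, the sign turned (0.04), so no direction is given for it.

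*Hspa9*, the matrix Hsp70 and the most abundant member, had 34977, 39766, 37329.6, 35322 and 31100.3 normalized counts in β-Mfn1/2DKO and 21163 to 30912 in Ctrl (median 24770.0). The groups did not overlap, but the gap between the lowest β-Mfn1/2DKO and the highest Ctrl library was narrow. *Hspa9* rose by 0.49 log2 units (SE 0.11, adjusted p = 0.00372). *Dnaja3* (chr16:4639989-4707695, plus strand), the J-protein that works with Hspa9, had 5476, 6008, 5779.8, 5512 and 4482 in β-Mfn1/2DKO and 3124 to 3803 in Ctrl (median 3429), with no overlap. *Dnaja3* rose by 0.66 log2 units (SE 0.08, adjusted p = 3.01e-06). In each of these genes, as in *Lonp1*, replicate 5 was the lowest of the β-Mfn1/2DKO libraries, and it had the highest sum of acinar markers. Without replicates 4 and 5 the log2 fold changes were 1.16 for *Lonp1*, 0.76 for *Dnaja3* and 0.58 for *Hspa9*. *Dnaja3* shares exon bases with *Coro7* on the opposite strand (41.2% as many counts) and with *Vasn* (11.3%).

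*Hspd1* (chr1:55077835-55088243, minus strand) and *Hspe1* (chr1:55088132-55091307, plus strand) encode the Hsp60 ring and its Hsp10 lid. *Hspd1* had 9888, 11303, 10068, 9879.8 and 8648 normalized counts in β-Mfn1/2DKO and 9314 to 10639.9 in Ctrl (median 10545). The groups overlapped, and the interval of the log2 fold change (−0.04, 95% interval −0.17 to 0.09) leaves out differences of the size measured for *Lonp1*, *Dnaja3* and *Hspa9*. *Hspe1* had 2312, 2890.2, 2559.9, 2524 and 2270.3 in β-Mfn1/2DKO and 2785 to 3291 in Ctrl (median 3069.8), so 4 of 5 libraries lay below all Ctrl libraries and replicate 2 lay within them. *Hspe1* fell by 0.28 on the log2 scale (SE 0.09, adjusted p = 0.0415). This call passed in 4 of the 11 fits that left out 1 library and was lost without Ctrl replicate 1, 3 or 6 or β-Mfn1/2DKO replicate 1, 3, 4 or 5 (−0.23 to −0.26, adjusted p = 0.0738 to 0.14, edgeR), and with total-count scaling the value was −0.14 (adjusted p = 0.389). It was also lost without β-Mfn1/2DKO replicates 4 and 5, the libraries of high acinar markers (−0.21, adjusted p = 0.246), with the acinar score as a covariate (−0.26, adjusted p = 0.0894) and with the authors' normalization factors (−0.23, adjusted p = 0.0791). *Hspd1* shares 33.7% of its 75-base stretches with other genes, *Hspd1-ps3* among them, and *Hspe1* 29.1%, so reads of both could have been split with copies. Their exons also overlap by 112 bases.

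*Trap1* (chr16:4039971-4077827, minus strand), the mitochondrial Hsp90, had 2685, 2775, 2628, 2855 and 2398 normalized counts in β-Mfn1/2DKO and 2028 to 2668 in Ctrl (median 2147). Ctrl replicate 6 reached into the range of β-Mfn1/2DKO, and the other 5 Ctrl libraries lay below it. *Trap1* rose by 0.25 log2 units (SE 0.07, adjusted p = 0.00962). Across the 10 members, 4 had all β-Mfn1/2DKO libraries above all Ctrl libraries (*Lonp1*, *Hspa9*, *Dnaja3* and *Htra2*), as did 6.56% of all genes and 12% of the more abundant ones. The only member with no overlap in the other direction was *Afg3l2* (4.04% and 8.59% of genes).

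Neither single knockout moved any of the 10 mRNAs past the threshold. In β-Mfn2KO the log2 fold changes against Ctrl ran from −0.04 to 0.08 and 0 of 10 passed, with 0 at an unadjusted p under 0.05 and a lowest adjusted p of 0.955 (edgeR). Over all genes 0.0559% were called in this comparison, and 0.122% of the more abundant ones. The interval was widest for *Lonp1*, at −0.16 to 0.33, which leaves out a change of the size seen in β-Mfn1/2DKO. In β-Mfn1KO the values ran from −0.10 (*Trap1*) to 0.15 (*Hspe1*) and 0 of 10 passed, against 0.0279% of all genes and 0.057% of the more abundant ones. Only *Clpp* had an unadjusted p under 0.05 in β-Mfn1KO, at 0.0466 (log2 fold change 0.14, adjusted p = 0.668). DESeq2 called 0 members in both single knockouts. All 10 members overlapped between Ctrl and each single knockout. Of all genes, 0.248% lay wholly above and 0.168% wholly below Ctrl in β-Mfn2KO, and 0.503% and 0.465% in β-Mfn1KO. The medians over the members were 0.01 in β-Mfn2KO and 0.05 in β-Mfn1KO, and 0.01 in both over the more abundant genes. All 3 knockout groups were compared with the same 6 Ctrl libraries, so these values are not independent of each other.

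β-Mfn1/2DKO was then set against each single knockout, which uses no Ctrl library, although both comparisons share the β-Mfn1/2DKO libraries. Against β-Mfn2KO 6 of 10 members passed, 5 higher and 1 lower, where 13% of all genes (7.09% higher, 5.9% lower) and 26.6% of the more abundant genes did. The log2 differences were 1.0 for *Lonp1* (SE 0.12, adjusted p = 9.82e-06), 0.60 for *Dnaja3*, 0.48 for *Hspa9*, 0.39 for *Htra2*, 0.20 for *Clpp* (adjusted p = 0.0437) and −0.32 for *Hspe1* (adjusted p = 0.0298). *Trap1* (0.20, adjusted p = 0.0565) did not pass. Against β-Mfn1KO 6 of 10 passed, where 17.4% of all genes (9.67% higher, 7.69% lower) and 35.1% of the more abundant ones did. Here *Lonp1* (1.11), *Dnaja3* (0.63), *Hspa9* (0.43), *Trap1* (0.35) and *Htra2* (0.27, adjusted p = 0.0477) were higher and *Hspe1* was lower (−0.42, adjusted p = 0.00453). Every β-Mfn1/2DKO library was above every β-Mfn2KO library for *Lonp1*, *Hspa9*, *Dnaja3* and *Htra2*, as for 6.56% of all genes, and above every β-Mfn1KO library for *Lonp1*, *Dnaja3*, *Htra2* and *Trap1*, as for 10.8%. *Afg3l2* was below every β-Mfn1KO library (7.37% of all genes) without passing the test. With a fold change over 1.5 added, 2 members remained called against each single knockout, *Lonp1* and *Dnaja3*, where 3.84% and 6.71% of all genes did. Against β-Mfn1KO the *Hspa9* call was lost without β-Mfn1KO replicate 3 (0.41, adjusted p = 0.0556) or replicate 4 (0.36, adjusted p = 0.0822). The *Htra2* call was lost in 5 of the 9 fits that left out 1 library, those without β-Mfn1KO replicate 1, 2 or 3 or β-Mfn1/2DKO replicate 4 or 5 (0.22 to 0.29, adjusted p of up to 0.152). Against β-Mfn2KO the *Clpp* call was lost in 5 of 10 such fits, without β-Mfn2KO replicate 1, 2 or 3 or β-Mfn1/2DKO replicate 2 or 4 (0.18 to 0.21). The *Hspe1* call was lost in 6, without β-Mfn2KO replicate 4 or 5 or β-Mfn1/2DKO replicate 1, 3, 4 or 5 (−0.22 to −0.30). *Trap1* passed without β-Mfn2KO replicate 3 (0.23, adjusted p = 0.0478) or β-Mfn1/2DKO replicate 5 (0.24, adjusted p = 0.0284).

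Whether losing *Mfn1* acted differently with and without *Mfn2* was tested as an interaction in the same edgeR fit. It passed for 3 of 10 members, against 5.92% of all genes and 12.8% of the more abundant ones, with 2.88% of all genes higher and 3.03% lower. With the fold threshold added, 1 member passed, *Lonp1*, against 2.74% of all genes. In *Lonp1* the effect of losing *Mfn1* was larger without *Mfn2* by 1.02 (log2, SE 0.18, adjusted p = 0.00128) and in *Dnaja3* by 0.57 (SE 0.12, adjusted p = 0.00446). In *Hspe1* it was lower by 0.46 (SE 0.14, adjusted p = 0.0471). For *Hspa9* (0.42, adjusted p = 0.171), *Trap1* (0.30, adjusted p = 0.0807) and *Htra2* (0.27, adjusted p = 0.24) the interaction did not pass, so a difference between their responses to *Mfn1* loss in the 2 backgrounds was not shown. The *Hspe1* interaction was lost in 16 of the 20 fits that left out 1 library and passed only without Ctrl replicate 1, β-Mfn1KO replicate 3, β-Mfn2KO replicate 3 or β-Mfn1/2DKO replicate 2. It was also lost with total-count scaling (−0.33, adjusted p = 0.212), with the authors' normalization factors (−0.42, adjusted p = 0.0594), with sex (−0.46, adjusted p = 0.0524) or the acinar score (−0.44, adjusted p = 0.088) as a covariate, and without β-Mfn1/2DKO replicates 4 and 5 (−0.40, adjusted p = 0.152). The *Trap1* interaction passed without β-Mfn1/2DKO replicate 5 (0.33, adjusted p = 0.0497).

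**Figure D2:**
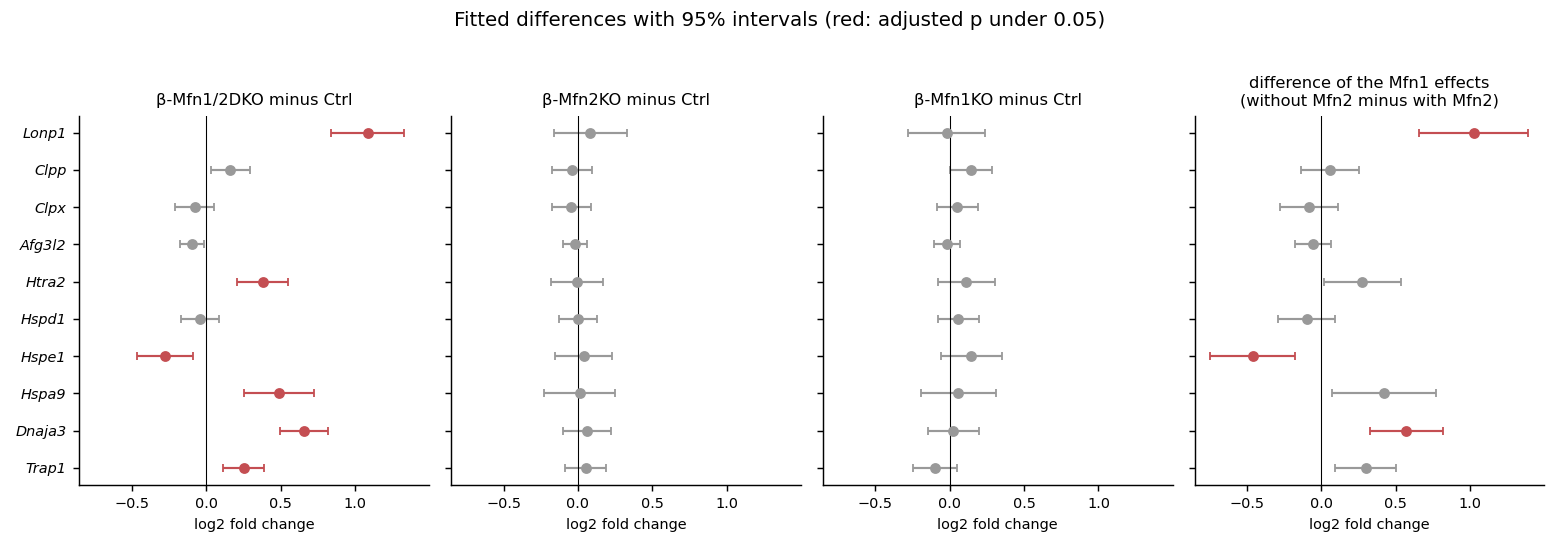
Log2 fold changes of the 10 members (points) with 95% intervals (lines) in the edgeR fit, 1 panel per comparison; red marks an adjusted p under 0.05. *Lonp1* and *Dnaja3* are red and to the right in each comparison that involves β-Mfn1/2DKO, and all members lie within 0.15 of 0 in the single knockouts.

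Depth moved with genotype, so the members were also compared between libraries of like depth. Among libraries above 40 M counts, the 5 of β-Mfn1/2DKO could be set against 2 of β-Mfn2KO. Both of these β-Mfn2KO libraries were male, while β-Mfn1/2DKO replicates 1 and 2 were female. β-Mfn2KO replicate 4 had high acinar markers, as did β-Mfn1/2DKO replicates 4 and 5. In this split 3 of 10 members passed: *Lonp1* (0.91, adjusted p = 0.00334), *Dnaja3* (0.66, adjusted p = 0.0129) and *Hspe1* (−0.48, adjusted p = 0.0211). Of all genes 6.3% passed in this split, and 12.4% of the more abundant ones. *Hspa9* was at 0.43 (adjusted p = 0.0568) and *Htra2* at 0.27 (adjusted p = 0.121). With depth class as a covariate in the fit of all libraries, the same 3 members passed against Ctrl, at 0.84 (adjusted p = 0.032), 0.68 (adjusted p = 0.0116) and −0.67 (adjusted p = 0.00772), where 2.54% of all genes and 5.2% of the more abundant ones passed. Here *Hspa9* was at 0.33 (adjusted p = 0.506), *Trap1* at 0.21 (adjusted p = 0.474) and *Htra2* at 0.08 (adjusted p = 0.903). Only the 5 β-Mfn2KO libraries tell depth from genotype in that fit. In *Hspe1* the deep β-Mfn2KO replicates 4 and 5 had 3496 and 3768 normalized counts, and the other 3 had 2539 to 2897, so depth and the *Hspe1* level rose together within this group while all β-Mfn1/2DKO libraries lay at 2270.3 to 2890.2. Among libraries below 40 M counts, a split added after the data were seen, 0 of 10 members passed in either single knockout.

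**Figure D3:**
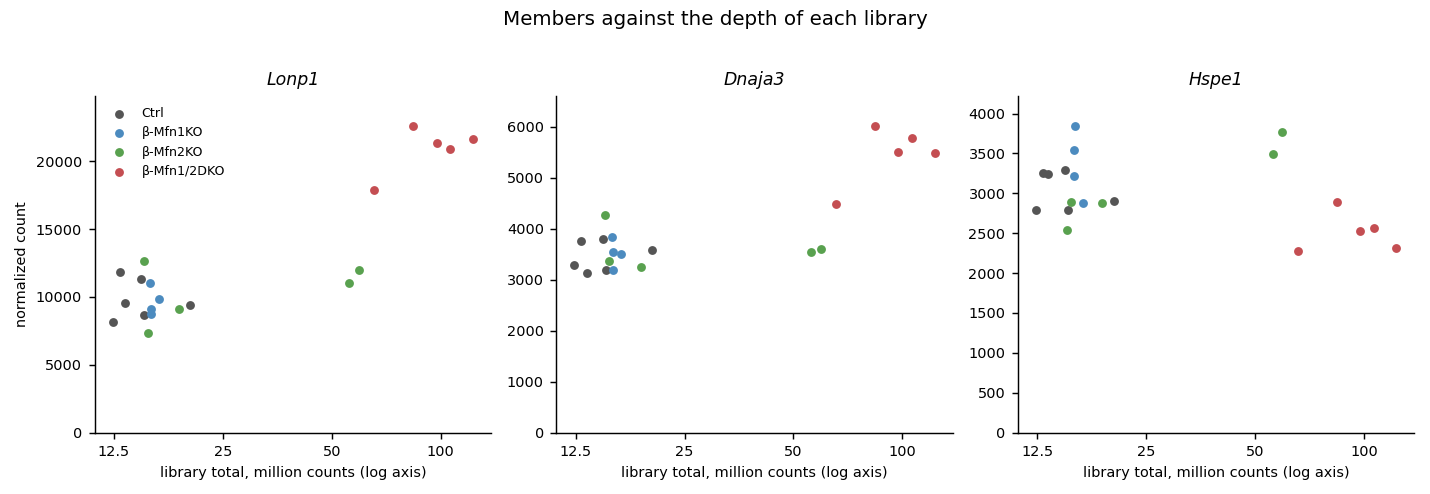
Normalized counts of selected members (vertical axis, from 0) against the total of each library in M counts (horizontal log axis), 1 point per library, coloured by group. The deep β-Mfn2KO libraries, at 56.0 and 59.5 M counts, lie with the shallow ones for *Lonp1* and above them for *Hspe1*.

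Ratios of raw counts within a library need no scaling between libraries, and 6 ratios were taken in 4 comparisons. The ratios of partners (*Hspe1*:*Hspd1*, *Clpx*:*Clpp* and *Dnaja3*:*Hspa9*) are given with two-sided exact permutation tests, adjusted over all 24 ratio comparisons. The 24 also hold the ratios of *Lonp1* and *Trap1* to other members, which were chosen with the differences of these genes known. Those ratios are given as descriptions, without their p-values. Their low p-values in β-Mfn1/2DKO can lower the adjusted p-values of the partner ratios. No adjustment over the partner ratios alone was run, so a pass of a partner ratio is not firm. *Lonp1* counts relative to *Hspd1* were 2.19, 2.00, 2.07, 2.16 and 2.07 in β-Mfn1/2DKO and 0.820 to 1.13 in Ctrl, with 0.795 to 0.983 in β-Mfn1KO and 0.786 to 1.23 in β-Mfn2KO. The β-Mfn1/2DKO values were tightly grouped (SD 0.05 on the log2 scale, against 0.17 in Ctrl). The difference from Ctrl was 1.14 log2 units. *Lonp1* relative to *Clpp* was 8.92 to 9.81 in β-Mfn1/2DKO and 4.25 to 5.84 in Ctrl, a difference of 0.94. *Trap1*:*Hspd1* was higher by 0.30 than in Ctrl.

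Within the partner pairs, the lid-to-ring ratio *Hspe1*:*Hspd1* was 0.234, 0.256, 0.254, 0.255 and 0.263 in β-Mfn1/2DKO and 0.273 to 0.311 in Ctrl, without overlap. This difference was −0.23 (exact permutation p = 0.00433, the smallest that 462 splits allow, adjusted p = 0.0297) against Ctrl and −0.26 (exact permutation, adjusted p = 0.0866) against β-Mfn2KO, whose libraries ran from 0.246 to 0.349. The unfoldase-to-peptidase ratio *Clpx*:*Clpp* was 1.25 to 1.67 in β-Mfn1/2DKO and 1.59 to 1.80 in Ctrl, a difference of −0.23 (exact permutation p = 0.013, adjusted p = 0.039). Both adjusted values under 0.05 rest on the family of 24 that holds the *Lonp1* and *Trap1* ratios. *Dnaja3*:*Hspa9*, at 0.144 to 0.157 in β-Mfn1/2DKO and 0.123 to 0.155 in Ctrl, differed by 0.15 and did not pass (exact permutation, adjusted p = 0.0519). In the single knockouts none of these 3 ratios passed, with adjusted p-values of 0.594 to 0.987 in the exact permutation tests. Leaving out 1 library gave 11 comparisons with Ctrl. The *Hspe1*:*Hspd1* call was lost in 4, without β-Mfn1/2DKO replicate 1, 2, 3 or 4. The *Clpx*:*Clpp* call was lost in 8, without any of these or Ctrl replicate 1, 2, 5 or 6. Adjusted p-values were then 0.0544 to 0.0847 (exact permutation), and the differences kept their sign. With 4 against 6 libraries the smallest p of this test is 0.00952. Losses without a β-Mfn1/2DKO library therefore follow in part from group size.

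**Figure D4:**
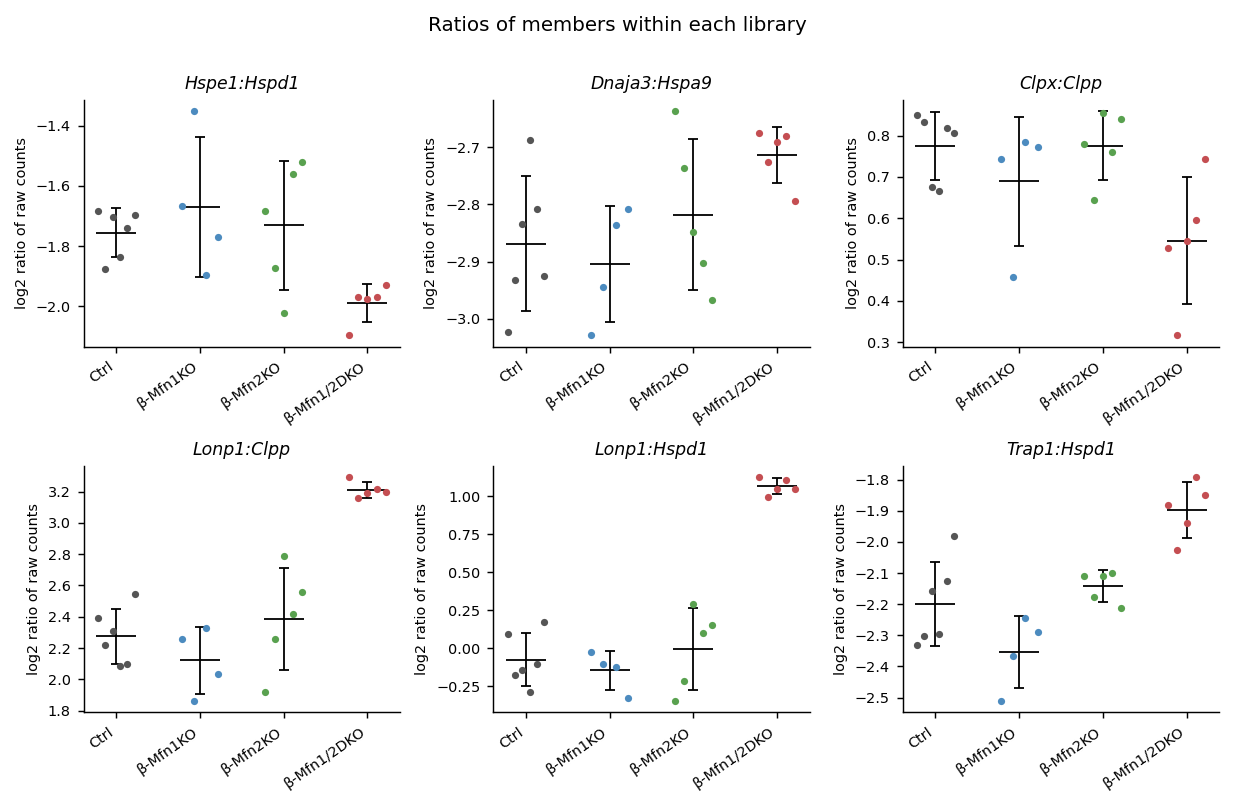
Log2 ratios of the raw counts of 2 members within each library (vertical axis), 1 panel per ratio and 1 point per library, with group means and SD. *Lonp1*:*Hspd1* and *Lonp1*:*Clpp* of β-Mfn1/2DKO lie above all other libraries, and *Hspe1*:*Hspd1* of β-Mfn1/2DKO lies below all Ctrl libraries.

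Other genes of mitochondrial protein handling were read from lists and are described for β-Mfn1/2DKO against Ctrl by the same edgeR test. Of 10 other mitochondrial chaperones and co-chaperones 5 were higher and 0 lower. These were *Hscb*, a J-protein of iron-sulfur cluster assembly (0.46, adjusted p = 0.0036), *Tomm34* (0.31), the nucleotide exchange factors of Hspa9 *Grpel2* (0.31) and *Grpel1* (0.21), and *Dnlz*, which keeps Hspa9 soluble (0.21). Of 13 other mitochondrial proteases *Mipep*, a presequence peptidase, was higher (0.19, adjusted p = 0.0412). The *Mipep* call was lost with depth class or the acinar score as a covariate. It was also lost with DESeq2 size factors, with the authors' normalization factors and with counts drawn down to the smallest total. *Yme1l1*, the i-AAA protease, was lower (−0.36, adjusted p = 2.17e-05), with 5624 ± 232 normalized counts in β-Mfn1/2DKO (SD, n = 5) against 7228 ± 483 in the 6 controls. The medians of these lists were 0.19 and 0.01, beside 0.03 for the more abundant genes, of which 33.6% passed in either direction. Once depth class entered the fit, 0 of the 10 chaperones passed and *Yme1l1* was at the threshold (−0.34, adjusted p = 0.05).

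Of 8 genes linked to mitochondrial stress signalling 3 were higher and 1 lower. In the same comparison 19.5% of the more abundant genes were higher and 14% lower. *Ddit3*, which encodes the transcription factor CHOP, rose by 1.95 log2 units, to 9619.8 ± 2528 normalized counts in β-Mfn1/2DKO (SD, n = 5) against 2484 ± 665 in the 6 controls, with an adjusted p of 4.22e-05. *Cebpb*, which encodes a partner of CHOP, rose by 0.78 and *Hsf1*, the heat shock factor, by 0.22. *Ubl5* was lower (−0.30, adjusted p = 0.00419), a call lost with total-count scaling. *Atf4* (0.07, adjusted p = 0.674) and *Atf5* (0.10, adjusted p = 0.433), both of which are also controlled after transcription, did not pass. Of 11 nucleoid genes, 4 were higher, namely the mitochondrial topoisomerase *Top1mt* (1.04), *Atad3a* (0.40), *Phb2* (0.22) and the mtDNA polymerase *Polg* (0.18), and *Ssbp1* was lower (−0.16, adjusted p = 0.0479). *Tfam*, which encodes the mtDNA packaging protein that Lonp1 can degrade, was at 0.10 (adjusted p = 0.245). After depth class was added to the model, 0 of the 11 nucleoid genes passed as higher and 1 as lower. The median of the nucleoid list was then 0.12, against 0.14 in the main fit. Among the 8 stress-signalling genes 2 were then higher and 1 lower.

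Chaperones of other compartments were read in the same way, and their difference from the mitochondrial ones was not tested. Of the more abundant genes 19.5% were higher and 14% lower. Of 10 chaperones and folding enzymes of the endoplasmic reticulum 0 were higher and 8 lower, namely *Hyou1* (−0.82), *Pdia6* (−0.76), *Pdia4*, *Dnajc3*, *Hsp90b1*, *Calr*, *Pdia3* and *Dnajb11* (−0.36), with a median of −0.54. *Hspa5* (−0.30, adjusted p = 0.102) and *Canx* (−0.18, adjusted p = 0.0748) did not pass. β-cell markers, which are of the main secretory cell of the islet, moved the same way, and the part of cell makeup in these values was not tested. Of 19 cytosolic chaperones 8 were lower, namely *Hsph1* (−0.41), *Hspa8* (−0.36), *Dnajb1* (−0.34), *Dnaja1* (−0.33), *Cct3*, *Hsp90aa1*, *Cct6a* and *Hspa4* (−0.20 to −0.18), and 3 were higher (*Hspb1*, *Cct4* and *Dnaja2*). The *Hspb1* value of 2.61 rested on the 2 libraries of high acinar markers and was 0.12 (adjusted p = 0.916) without them. With total-count scaling 6 cytosolic chaperones were higher and 4 lower and the median turned from −0.08 to 0.06, while the endoplasmic reticulum list kept 6 lower and 0 higher. With depth class as a covariate 0 genes of the endoplasmic reticulum list passed (median −0.28). Of the cytosolic list 0 were then higher and 1 lower. In that fit 5.2% of the more abundant genes passed. In both single knockouts 0 genes of these 6 lists passed in edgeR.

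**Figure D5:**
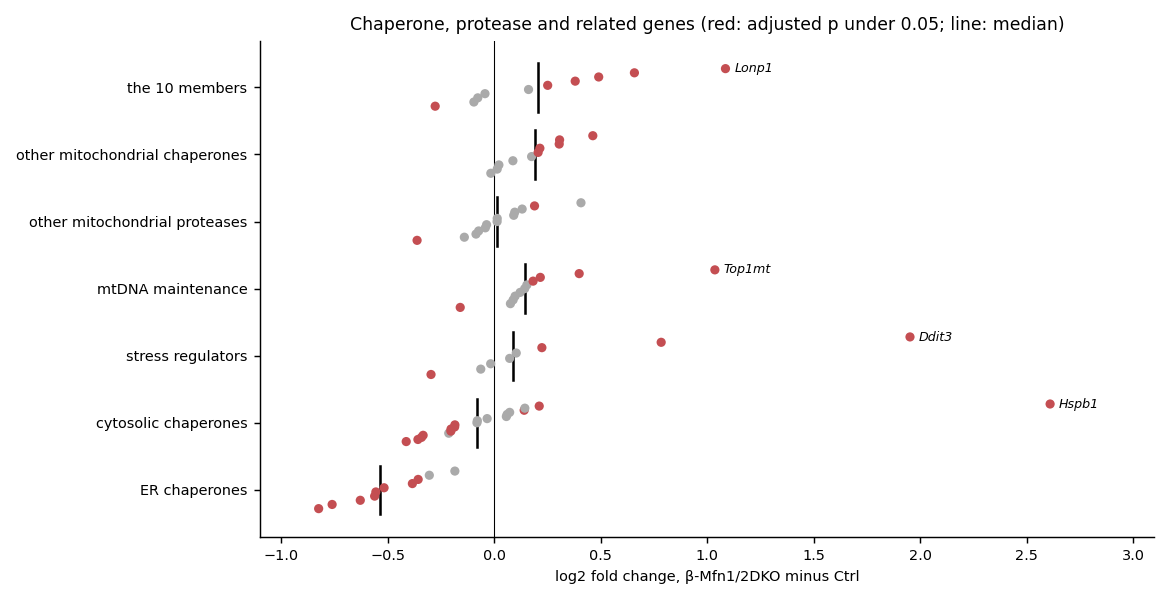
Log2 fold changes of β-Mfn1/2DKO against Ctrl (horizontal axis) for the members and for 6 lists of related genes, 1 point per gene, red where the adjusted p was under 0.05, with a line at each list's median. The medians are 0.21 for the members, 0.19 for other mitochondrial chaperones and −0.54 for chaperones of the endoplasmic reticulum.

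Levels can be compared between genes only per length, so group means were also divided by the length of each gene's principal transcript. In Ctrl the order was *Hspa9* (8333 normalized counts per kb), *Hspd1* (4235), *Hspe1* (3932), *Lonp1* (3329), *Clpp* (2048), *Afg3l2* (1496), *Dnaja3* (1304), *Clpx* (1197), *Trap1* (967) and *Htra2* (429). *Hspd1* and *Hspe1* differed by less than the larger of their SDs (218 and 313 per kb), as did *Dnaja3* and *Clpx* (112 and 114). In β-Mfn1/2DKO *Lonp1* reached 7068 ± 605 normalized counts per kb (SD, n = 5) and stood second behind *Hspa9* (11708 ± 1050.1), ahead of *Hspd1* (4109 ± 389). With lengths taken over all exons of a gene *Lonp1* also ranked second in β-Mfn1/2DKO (4768 per kb), but part of the Ctrl order changed: *Lonp1* (2246) stood before *Hspe1* (2065), *Clpx* (989) moved from rank 8 to 6, and *Afg3l2* (469) from rank 6 to 9. The order of these genes therefore depends on the transcript length used. The members together took up 0.133 to 0.177% of all counts in Ctrl, 0.141 to 0.169% in β-Mfn1KO, 0.129 to 0.182% in β-Mfn2KO and 0.189 to 0.249% in β-Mfn1/2DKO.

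Across the 20 libraries the profile of *Lonp1* was most like those of *Dnaja3* (Pearson r of log2 CPM 0.960) and *Hspa9* (0.910) among the members. The libraries share genotype and depth, so these values are descriptions. With group means removed they were 0.761 and 0.883, which shows that mice of 1 group with more *Lonp1* also had more *Hspa9*. *Hspd1* (−0.04) had no likeness over all libraries but 0.62 with group means removed, and *Afg3l2* ran opposite to *Lonp1* (−0.779 and −0.464). Among 12264 other genes with a mean of at least 100 the 5 most like *Lonp1* were *Akna*, *Stard5*, *L1cam*, *Cep126* and *Tenm4*, with r of 0.971 to 0.982. Their log2 fold changes in β-Mfn1/2DKO against Ctrl were 1.38 (*Cep126*) to 2.6 (*Tenm4*).

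Sex was given for each mouse, and the differences were read within each sex without a test. β-Mfn1/2DKO had 2 female and 3 male libraries, Ctrl 3 and 3, and β-Mfn2KO 2 and 3. *Lonp1* was higher in β-Mfn1/2DKO than in Ctrl by 1.14 log2 units in females and 1.08 in males, and *Dnaja3* by 0.72 and 0.62. *Hspa9* (0.49 and 0.54), *Htra2* (0.39 and 0.35) and *Trap1* (0.31 and 0.21) were higher in both sexes and *Hspe1* was lower in both (−0.28 and −0.26). Against β-Mfn2KO the *Lonp1* difference was 1.44 in females and 0.75 in males, and the 2 lowest β-Mfn2KO values, 7315 and 9079.9, were the female libraries. The deep libraries of β-Mfn2KO were both male, so sex and depth cannot be told apart there.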

How the data were processed

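RNA of islets from 20 mice was sequenced by the authors. Per the processing notes, reads were trimmed with cutadapt 2.3, checked with FastQC 0.11.8, aligned to GRCm38 with STAR 2.6.1b and quantified with RSEM 1.3.1. The deposited count table holds whole-number gene counts without normalization, and genes at 0 in all libraries had been removed. The other deposited table is the authors' depth-normalized signal, made with DESeq2 1.26.0 and used here only to recover their normalization factors. No column of per-sample values was left out (0). Whether counting used strand is not given in the sources used here.

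Counts (28632 genes) went through edgeR 4.0.16 under R 4.3.3 with TMM, estimateDisp, glmQLFit and glmQLFTest, in 1 fit over 20 libraries with a coefficient per group. P-values were adjusted by Benjamini-Hochberg over all genes, and the standard error is the absolute log2 fold change over the root of F. The fit was tested on simulated data. Ratios were compared with exact permutation tests (SciPy 1.17.1, NumPy 2.4.6, pandas 2.3.3, Python 3.11.15). Depth was 12.4 to 122.9 M counts. Raw counts in Ctrl went down to 211 for *Htra2* and 1320 for *Afg3l2*. Counting error is therefore not small beside the spread between mice for every member. Genes were located with GENCODE M21, and 75-base stretches were compared between transcripts.

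The members and lists were chosen with earlier results of these data known. All members were named, list genes where they passed in β-Mfn1/2DKO against Ctrl, and the 5 genes most like *Lonp1* by Pearson r. *Tfam*, *Atf4*, *Atf5*, *Hspa5* and *Canx* were named as not passing. Alternatives were DESeq2 1.42.0, scaling by DESeq2 size factors, by total count, by TMM of nuclear genes or by the authors' factors, filterByExpr, the groups compared only, sex, replicate number, depth class or an acinar score as covariates, libraries of like depth, counts drawn down to the smallest total, a fold change over 1.5, and leaving libraries out. The split to libraries below 40 M counts was added after seeing the data.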

Additional observations from a re-analysis of the deposited data

Results flagged for a closer look

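The effect of losing *Mfn1* differed between islets without and with *Mfn2* in 3 members, by the interaction term of the edgeR fit. In *Lonp1* the difference between the effects was 1.02 log2 units (adjusted p = 0.00128): β-Mfn1/2DKO stood 1.0 above β-Mfn2KO, and β-Mfn1KO stood −0.02 from Ctrl. In *Dnaja3* it was 0.57 (adjusted p = 0.00446), from 0.60 and 0.03. In *Hspe1* it was −0.46 (adjusted p = 0.0471), from −0.32 and 0.15. With depth class as a covariate the interaction was 0.88 for *Lonp1* (adjusted p = 0.0181), 0.58 for *Dnaja3* (adjusted p = 0.0224) and −0.68 for *Hspe1* (adjusted p = 0.00459). The *Lonp1* and *Dnaja3* interactions also passed with total-count scaling, with the authors' normalization factors, with sex or the acinar score as a covariate and without β-Mfn1/2DKO replicates 4 and 5, in each of which that of *Hspe1* did not (−0.46 to −0.33, adjusted p = 0.0524 to 0.212, edgeR). No group of 4 to 6 libraries had a single outlying value for any member by Dixon's criterion.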

How the results depend on the processing

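*Lonp1* and *Dnaja3* passed in β-Mfn1/2DKO against Ctrl in all 13 alternative fits (0.84 to 1.22 and 0.62 to 0.80) and in all 11 fits that left out 1 library (1.04 to 1.15 and 0.63 to 0.72). The number of members called there was 2 to 7 over 14 alternatives, 12 of them within 1.5 times of the main count. A fold change over 1.5 left 2 members in β-Mfn1/2DKO against Ctrl, 2 against β-Mfn2KO, 2 against β-Mfn1KO and 1 in the interaction, and 0 genes of the other 2 mitochondrial lists. Depth class as a covariate left 3 members in each of these 3 comparisons, where it left 2.54, 5.88 and 4.31% of all genes, 1 list gene in place of 7, and −0.030 (adjusted p = 1) for *Htra2* against β-Mfn1KO, a turn of its sign; libraries above 40 M counts left 3 members. List genes called were 14 with total-count scaling (13 higher, 1 lower) and 4 with the authors' factors; the cause was not tested.

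Leaving out 1 library gave 5 to 6 members against Ctrl, 4 to 6 against β-Mfn1KO and β-Mfn2KO, 2 to 3 in the interaction, 0 in the single knockouts, and 4 to 8 list genes, 4 without Ctrl replicate 3. The ratios against Ctrl then ran from −0.28 to −0.17 (*Clpx*:*Clpp*), 0.12 to 0.19 (*Dnaja3*:*Hspa9*), −0.26 to −0.20 (*Hspe1*:*Hspd1*), 0.90 to 0.99 (*Lonp1*:*Clpp*), 1.10 to 1.19 (*Lonp1*:*Hspd1*) and 0.27 to 0.34 (*Trap1*:*Hspd1*). Against β-Mfn2KO they ran from −0.28 to −0.17, 0.07 to 0.15, −0.33 to −0.20, 0.71 to 0.93, 0.99 to 1.15 and 0.22 to 0.28 in the same order. Drawn down to the smallest total, *Clpx*:*Clpp* was −0.27 (exact permutation, adjusted p = 0.0762) and −0.25 (adjusted p = 0.104). Without β-Mfn1/2DKO replicates 4 and 5, fewer samples raise the smallest p that the exact permutation test can reach. The ratios against Ctrl were then −0.26 (*Hspe1*:*Hspd1*), −0.31 (*Clpx*:*Clpp*), 0.94 (*Lonp1*:*Clpp*), 1.13 (*Lonp1*:*Hspd1*) and 0.25 (*Trap1*:*Hspd1*). Against β-Mfn2KO they were −0.31, 0.83, 1.06 and 0.19 for the last 4. The adjusted p of the exact permutation test was 0.107 for *Hspe1*:*Hspd1* against Ctrl and for *Clpx*:*Clpp* in both comparisons.

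With the replicate number as a block, 5 members passed against Ctrl, 7 against β-Mfn2KO, 6 against β-Mfn1KO, 2 in the interaction, 0 in each single knockout and 7 list genes. Of all genes 17.3, 13.8, 16.4 and 5.09% passed in the first 4 of these comparisons with the block. *Hspe1* was then at −0.26 (adjusted p = 0.0722) against Ctrl and −0.48 (adjusted p = 0.0538) in the interaction, and *Trap1* at 0.20 (adjusted p = 0.0203) against β-Mfn2KO. Same-numbered libraries of different groups had a mean correlation of deviations from their group means of 0.127 (−0.128 to 0.342), over 0.1 in 16 of 27 pairs, and other pairs −0.028, and 8 of 19 libraries were most like their own number. The number follows sex: replicates 1 and 2 were female and 4 to 6 male in every group that had them, and replicate 3 was mixed. The part of sex in these correlations and in the block fit was not tested. Because 11 pairs were not over 0.1 and no source used here says what else the numbers mark, they were not taken to pair the libraries. Whether some same-numbered libraries share a litter or a day was not tested.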
